A study of Mus musculus with 16 samples.

Results

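The cell cycle and mitosis genes described here are 50 genes of DNA replication, cell cycle control and mitosis, chosen by symbol from a table of 26357 mouse genes. All 50 were found, and all 50 were among the 14671 genes with enough counts to be tested. They were sorted by role into 10 genes of replication licensing and the replicative helicase, 6 of nucleotide supply, the sliding clamp and methylation upkeep, 4 of the G1/S transition, 9 of the G2/M transition, 10 of the kinetochore, its checkpoint and the chromosomal passenger complex, 7 of the spindle, 2 of mitotic exit and 2 of chromosome structure. The first 16 are called DNA replication genes below, and the last 30 mitotic genes.

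The study gave mice IL-23, a cytokine of the type 17 response, or vehicle, and its title concerns a psoriasis-like skin inflammation and its use in finding drugs. RNA of 16 libraries was sequenced, 4 in each of 4 groups: vehicle with oral dosing, vehicle with intraperitoneal dosing, IL-23 with oral dosing and IL-23 with intraperitoneal dosing. Every group, the IL-23 groups included, had also received a drug vehicle without drug (0 mpk) by the route named, so no group here carries a test compound. The labels give no tissue, strain, sex, age, IL-23 dose or day of harvest. Libraries go by the number that opens their title, and nothing says which of them came from separate animals, so p-values measure the spread between these libraries, part of which may be technical.

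A dividing cell first licenses its replication origins in G1 by loading the MCM helicase with CDC6 and CDT1. D- and E-type cyclins with their kinases then release E2F factors from the retinoblastoma family, and E2F targets supply the replication machinery and the deoxynucleotides. Mitotic genes peak later, under the B-MYB, MuvB and FOXM1 regulators, and are held down in resting cells by the DREAM complex, which reaches them through a short promoter element called the cell cycle genes homology region (CHR). In epidermis, division is largely kept to the basal layer, and psoriatic plaques are known for an expanded dividing compartment.

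RefSeq promoter windows of GRCm38.p6, from 250 bases before to 50 after an annotated start, were found for 39 of the 50 genes. The 3 mitotic promoters shown first have a CHR-type match within the 150 bases before the start, and those bases lie wholly outside annotated genes. Among such promoters they had the smallest p-values. Promoters whose only matches lie farther up or after the start were not eligible. The replication promoter is the single one of the replication genes with an E2F-type match under the same conditions. Their roles and levels are described further on. Each run holds the 150 bases before the start, 5′ to 3′ on the gene's strand. Capitals mark CHR-type words (TTTGAA or TTCGAA) in the first 3 and E2F-type words (TTTCGCGC, TTTGGCGC, TTTCCCGC or TTTGCCGC) in the last, on either strand. Their places are chr10:69352913-69353062 (minus strand), chr4:118437344-118437493 (minus), chr2:164769779-164769928 (plus) and chr1:128359706-128359855 (minus).
Cdk1: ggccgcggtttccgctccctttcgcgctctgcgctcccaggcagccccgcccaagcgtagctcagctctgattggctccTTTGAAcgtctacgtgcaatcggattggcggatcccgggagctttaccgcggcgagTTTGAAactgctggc
Cdc20: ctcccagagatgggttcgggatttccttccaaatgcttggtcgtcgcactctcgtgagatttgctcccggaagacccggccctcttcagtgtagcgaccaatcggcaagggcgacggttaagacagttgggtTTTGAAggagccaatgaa
Ube2c: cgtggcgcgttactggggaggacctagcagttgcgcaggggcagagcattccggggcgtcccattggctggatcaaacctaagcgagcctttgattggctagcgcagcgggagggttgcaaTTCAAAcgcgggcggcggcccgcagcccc
Mcm6: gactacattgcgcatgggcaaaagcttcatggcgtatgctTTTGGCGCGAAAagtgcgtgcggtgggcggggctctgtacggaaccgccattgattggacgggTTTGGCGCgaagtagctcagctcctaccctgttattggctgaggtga
The CHR-type words begin 71 and 15 bases before the start in Cdk1, 18 before it in Cdc20 and 29 before it in Ube2c. In Mcm6 the marked stretch that begins 110 bases before the start holds overlapping matches on both strands, and another match begins 47 bases before it.

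Levels are given as CPM, the counts of a gene scaled to a library of fixed size with TMM factors. Library totals ran from 6381990 to 14432930 counts, and 17012 to 18287 genes were detected in each. The table holds RNA rich in keratinocyte genes: the 8 basal keratinocyte markers summed to 19070 to 25402 CPM in vehicle and 20900 to 30167 CPM in IL-23 libraries, whereas the 5 liver markers summed to at most 2.33 CPM and the 5 neuron markers to at most 1.10 CPM. IL-23 library 28 (intraperitoneal) stood apart in immune and stromal markers, with summed T cell markers of 67.7 CPM against 10.7 to 24.8 CPM in the other 7 IL-23 libraries. Its summed macrophage and monocyte markers were 1554 CPM, against 264.1 to 453 CPM, so the main counts of the 50 genes are also given without it. The 50 genes had 32 to 4069 counts each in a library. In bulk RNA, a change in the number of dividing cells and a change in RNA per cell cannot be told apart. On the genome 13 of the 50 genes overlap another gene of the table (Mcm7, Gins2, Tk1, Ccnd1, Ccne2, E2f1, Ccna2, Aurka, Foxm1, Kif20a, Prc1, Nusap1 and Cdc20). The strand setting of the counting is not given in the sources used here, so reads of such pairs may not be separated.

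With IL-23, nearly all of these genes were higher in both routes. In the oral groups 45 of the 50 rose, 1 fell and 4 did not pass the test (edgeR quasi-likelihood, Benjamini-Hochberg adjusted p under 0.05 over all genes), where 63.3% of all tested genes passed, 29.2% rose and 34% fell. In the intraperitoneal groups 44 rose, 1 fell and 5 did not pass, against 61.7% passing and 30.8% rising among all genes. Over the mean of both routes 47 rose, 1 fell and 2 did not pass, against 73.6% passing and 34.9% rising. The median log2 fold change of the 50 was 0.86 oral, 0.80 intraperitoneal and 0.84 over both, against -0.06, -0.02 and -0.04 for all tested genes. A called rise of at least 2-fold was seen in 18 of the 50 in the oral groups (7.74% of all genes), in 13 in the intraperitoneal groups (7.71%) and in 17 over both (7.78%). The gene that fell was Ccnd1.

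Single libraries show the same split. In 40 of the 50 genes all 8 IL-23 libraries were above all 8 vehicle libraries, as in 19% of all tested genes, and in Ccnd1 all 8 were below. Within the oral route 44 genes had no overlap with IL-23 higher (27.9% of all genes), and within the intraperitoneal route 42 (25.1%). The oral and intraperitoneal comparisons share no library, though they share the estimate of spread. Without library 28 the intraperitoneal count was 43 higher and 1 lower with a median of 0.74, and the count over both routes 46 higher and 1 lower with a median of 0.81.

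**Figure D1:**
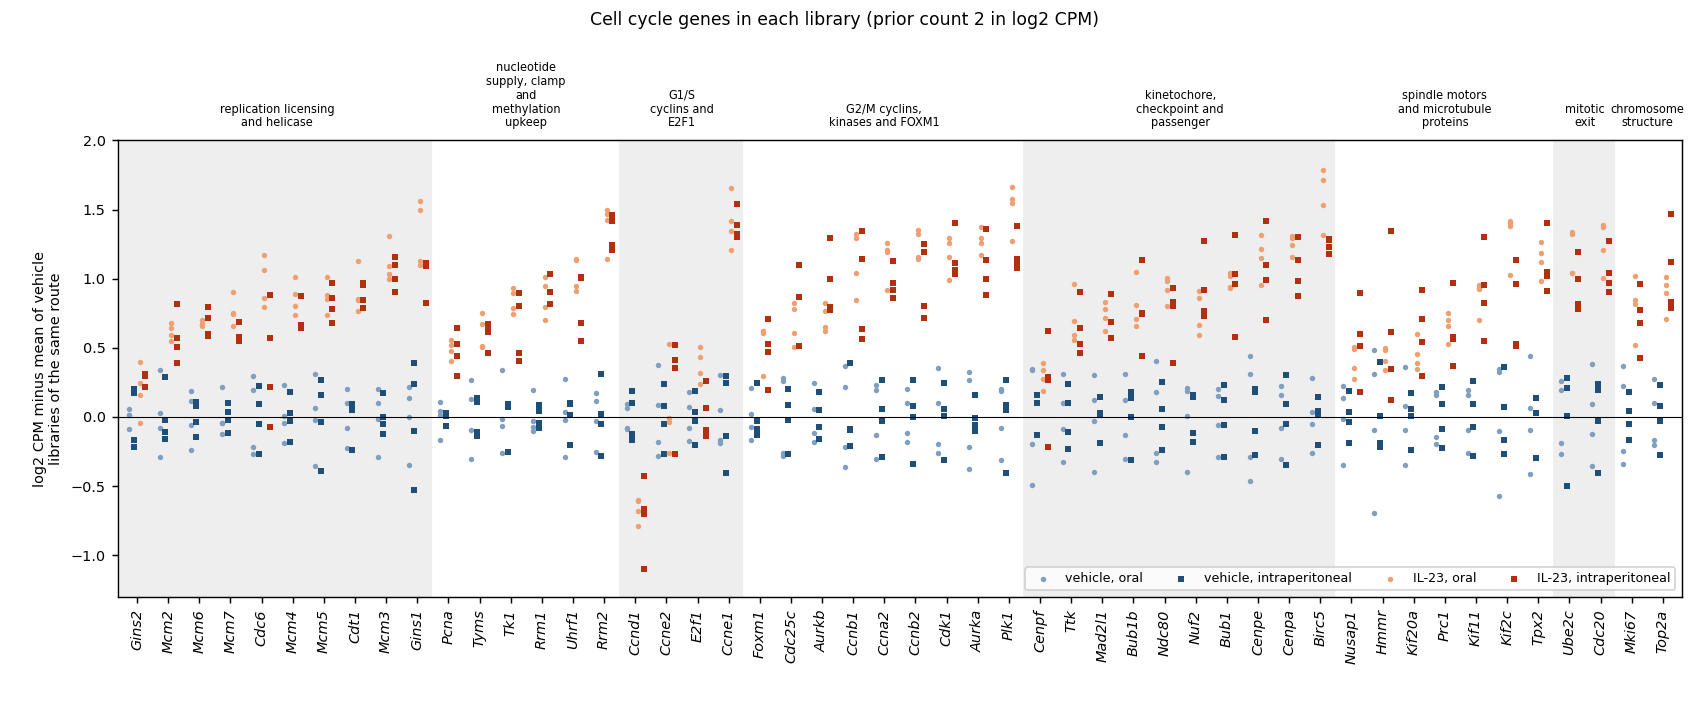
Each point is 1 library's log2 CPM of a gene minus the mean of the 4 vehicle libraries of the same route, for the 50 genes ordered by role (bands) and, within a role, by change. IL-23 libraries (orange and red) lie above vehicle libraries (blue) for most genes, lie below them for Ccnd1, and mix with them for Ccne2 and Cenpf.

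The 10 licensing and helicase genes all rose over both routes, with a median log2 fold change of 0.75 and a range of 0.24 to 1.18. Counts of each role, here and below, stand beside the shares of all genes that rose. These were 29.2% oral, 30.8% intraperitoneal and 34.9% over both routes. Cdt1 (gene ID 67177, chr8:122568015-122573130), which loads the helicase onto origins, measured 31.4, 27.7, 33.8 and 25.1 CPM in oral vehicle libraries 4, 27, 33 and 51, and 23.1, 28.4, 29.3 and 29.3 CPM in intraperitoneal vehicle libraries 49, 50, 59 and 67. Cdt1 then measured 52.9, 49.999, 64.2 and 53 CPM in oral IL-23 libraries 14, 24, 26 and 68, and 47.5, 49.4, 53.4 and 53.7 CPM in intraperitoneal IL-23 libraries 25, 28, 31 and 61. Values of 4 libraries given below keep this order, oral groups before intraperitoneal. The agents did not overlap for Cdt1, and its log2 fold change over both routes was 0.89 ± 0.08 (SE; edgeR adjusted p = 1.79e-08), a 1.86-fold rise.

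The 6 MCM genes of the list, which code for the ring-shaped replicative helicase, rose between 1.5-fold (Mcm2) and 2.11-fold (Mcm3). Mcm3 (gene ID 17215, chr1:20802966-20820312) went from 46.7, 50.7, 54.3 and 38.6 CPM (oral) and 47, 51.2, 57.6 and 49.3 CPM (intraperitoneal) in vehicle libraries. It was at 94.4, 97, 118 and 101 CPM and 102, 114, 109.7 and 95.8 CPM in the IL-23 libraries of the same routes. The gap between agents was wide and free of overlap, with a log2 fold change of 1.07 ± 0.07 (edgeR adjusted p = 1.32e-09). For Mcm2 the lowest, median and highest of 8 libraries were 27.5, 34.7 and 46.3 CPM with vehicle and 49.3, 53.2 and 66.7 CPM with IL-23. Mcm5 went from 39.3, 52.2 and 64.2 to 83.7, 92.2 and 104 CPM in the same terms. Neither gene overlapped between agents, with changes of 0.58 ± 0.09 and 0.83 ± 0.10 on the log2 scale. Mcm4, Mcm6 and Mcm7 lay between, at 1.72-, 1.59- and 1.6-fold.

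Cdc6, the other loader of the helicase, was low in all libraries. Its vehicle libraries read 4.29, 6.46, 6.0 and 4.46 CPM (oral) and 6.08, 7.39, 6.75 and 5.2 CPM (intraperitoneal). With IL-23 they read 9.2, 9.66, 12.1 and 11.2 CPM and 6.0, 11.8, 7.37 and 9.45 CPM, so that the oral groups were apart while intraperitoneal IL-23 library 25 fell inside the vehicle range. The log2 fold change of Cdc6 was 0.99 ± 0.21 oral (edgeR adjusted p = 0.000481) and 0.45 ± 0.21 intraperitoneal (edgeR adjusted p = 0.0646), where it passed with RLE factors (0.48), with DESeq2 (0.48) and without library 25 (0.59). The difference between routes, -0.54 ± 0.29, was the largest of the 50 genes and did not pass the test (edgeR adjusted p = 0.875).

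Gins1 and Gins2 code for subunits of the same GINS complex, which joins the helicase at the fork, and had the largest and the smallest change of this group over both routes. Gins1 stood at 8.35, 7.55, 8.8 and 5.88 and 7.85, 10.03, 11.1 and 5.8 CPM with vehicle, and at 16.7, 16.4, 22.7 and 21.7 and 15.1, 18.3, 18.5 and 18.2 CPM with IL-23. No libraries overlapped, and the rise was 2.26-fold (log2 1.18 ± 0.13, edgeR adjusted p = 4.66e-07). Gins2 stood at 13.4, 12.4, 13.8 and 13.4 and 11.6, 14.8, 15.1 and 11.2 CPM with vehicle, and at 15.8, 17.5, 12.8 and 14.8 and 15.2, 16.3, 16.2 and 16.1 CPM with IL-23. Here the oral groups overlapped and the intraperitoneal groups did not, by a narrow margin, and the log2 fold change of 0.24 ± 0.09 passed over both routes (edgeR adjusted p = 0.0221) but in neither route alone (edgeR adjusted p = 0.174 oral and 0.0626 intraperitoneal). It no longer passed over both routes without IL-23 library 24 (0.20), with upper-quartile factors (0.15) or with plain library sizes (0.03), and it passed in the intraperitoneal groups without vehicle library 50 (0.34) or 59 (0.35) or IL-23 library 26 (0.28), and with RLE factors (0.30), DESeq2 (0.31) or limma-voom (0.31). The difference between Gins1 and Gins2 was not tested.

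All 6 genes of nucleotide supply, the clamp and methylation upkeep rose in each route, with a median log2 fold change of 0.82 over both. Rrm2 (gene ID 20135, chr12:24708254-24714146), the subunit of ribonucleotide reductase whose level follows the cell cycle, read 37.1, 32.3, 35.7 and 27.7 CPM and 28.9, 33.9, 43.8 and 35.8 CPM in the oral and intraperitoneal vehicle libraries. Rrm2 read 73.2, 91.8, 93.6 and 89 CPM and 81.7, 97.5, 94.3 and 83.6 CPM with IL-23. Every IL-23 library was far above every vehicle library, a 2.56-fold rise (log2 1.36 ± 0.09, edgeR adjusted p = 6.75e-10). Its partner Rrm1 rose 1.85-fold, from 135 ± 9.8 to 249.7 ± 19.2 CPM (SD, n = 8 each). Tk1 and Tyms, which make thymidine nucleotides, rose 1.67- and 1.51-fold.

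Pcna, the sliding clamp of the replicative polymerases, had the smallest change of these 6 over both routes. It measured 62.1, 60.7, 64.9 and 53.6 CPM and 61.9, 59, 62.8 and 62.9 CPM with vehicle, then 79.8, 86.4, 88.4 and 83.9 CPM and 96.5, 89.2, 83.8 and 75.6 CPM with IL-23. The agents were still apart, at a log2 fold change of 0.49 ± 0.05 (edgeR adjusted p = 4.69e-07). Uhrf1, which carries DNA methylation over to the new strand, rose 1.9-fold, from 45.5 ± 5.95 to 86.3 ± 10.2 CPM (SD, n = 8 each).

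The G1/S group was the one role in which genes went different ways. Of 4 genes over both routes, 2 rose, 1 fell and 1 did not pass, with a median log2 fold change of 0.19. Among all genes 34.9% rose and 38.7% fell. Ccne1 (gene ID 12447, chr7:38097984-38107490), the E-type cyclin that activates CDK2, read 11.7, 8.28, 9.8 and 8.42 CPM and 7.65, 10.03, 10.4 and 6.3 CPM with vehicle. Ccne1 read 24.3, 22.1, 30.2 and 25.6 CPM and 21.1, 24.9, 22.3 and 21.4 CPM with IL-23. The lowest IL-23 library was well above the highest vehicle library, and the rise was 2.64-fold (log2 1.40 ± 0.11, edgeR adjusted p = 9.57e-09).

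Ccne2, the second E-type cyclin, read 6.52, 4.99, 8.0 and 5.38 CPM and 7.45, 6.07, 6.67 and 5.2 CPM with vehicle, and 6.08, 5.07, 5.96 and 8.93 CPM and 5.19, 9.11, 8.44 and 8.12 CPM with IL-23. The agents overlapped in both routes. Its log2 fold change was 0.17 ± 0.15 over both routes (edgeR adjusted p = 0.325) and took the other sign with plain library sizes. In the oral groups alone it was 0.06 ± 0.22, and below 0 without vehicle library 27 or IL-23 library 68.

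Ccnd1 (gene ID 12443, chr7:144929931-144939831), the D-type cyclin that answers growth factor signals through CDK4 and CDK6, was the only one of the 50 to fall. Vehicle libraries gave 179.6, 183, 162 and 162 CPM and 198, 159, 186 and 155 CPM, and IL-23 libraries 99.3, 113, 107 and 113 CPM and 107, 129, 109 and 80.7 CPM. Every IL-23 library lay below every vehicle library. The log2 fold change was -0.67 ± 0.11 oral and -0.71 ± 0.11 intraperitoneal (edgeR adjusted p = 8.26e-05 and 5.45e-05).

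E2f1, an activating E2F factor, read 19, 16, 20.5 and 17 CPM and 17.9, 23.5, 20.2 and 21.1 CPM with vehicle, and 22.5, 21.4, 24.5 and 25.7 CPM and 18.6, 24.7, 21.5 and 19.2 CPM with IL-23. The oral groups were apart and the intraperitoneal groups overlapped. Its log2 fold change was 0.37 ± 0.12 oral (edgeR adjusted p = 0.0118), 0.04 ± 0.12 intraperitoneal (edgeR adjusted p = 0.811) and 0.20 ± 0.08 over both (edgeR adjusted p = 0.0376). The call over both routes was lost with upper-quartile factors (0.12), with plain library sizes (0.00096) and without any single one of libraries 27, 49, 59, 26, 68, 28 and 31 (0.17 to 0.20). The oral call was lost with plain library sizes. The intraperitoneal value took the other sign with upper-quartile factors, with plain library sizes, or without library 49 or 28.

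Other genes that set the G1/S step were also split. Of 5 further G1 cyclin and kinase genes, 3 rose, 1 fell and 1 did not pass over both routes, where 34.9% of all genes rose and 38.7% fell. Ccnd2, a second D-type cyclin, read 431, 376, 381 and 336 CPM and 439, 381, 393 and 294 CPM with vehicle, and 98.4, 110.1, 77 and 93.6 CPM and 106, 97.2, 128 and 89.5 CPM with IL-23. No IL-23 library reached as much as the lowest vehicle library, at a log2 fold change of -1.92 ± 0.10 (edgeR adjusted p = 6.42e-11). Ccnd3, the third D-type cyclin, went the other way, with a range of 38.9 to 48.1 CPM over the 8 vehicle and of 50.7 to 79.5 CPM over the 8 IL-23 libraries (log2 0.55 ± 0.08, edgeR adjusted p = 8.13e-06). Its oral call was lost with plain library sizes. Cdk4, the kinase of the D-type cyclins, rose from a range of 111 to 139 CPM to one of 169 to 202 CPM (log2 0.54 ± 0.06). Cdk2 rose by a log2 fold change of 0.29 ± 0.04, a call that was lost with plain library sizes. Cdk6 was at 6.19 to 12.7 and 11 to 13.3 CPM, a log2 fold change of 0.25 ± 0.12 (edgeR adjusted p = 0.0704) that passed with RLE factors (0.28), DESeq2 (0.28) or limma-voom (0.26) and without library 4 (0.35) or 28 (0.28). In the oral groups alone Cdk6 passed at 0.44 ± 0.17 (edgeR adjusted p = 0.0289), a call lost with upper-quartile factors (0.37), plain library sizes (0.25) or only the oral groups fitted (0.46), and without library 33 (0.39), 51 (0.32), 14 (0.42) or 26 (0.42).

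The CDK inhibitors moved in both directions as well: 4 rose and 3 fell of 7 tested, where 34.9% of all genes rose and 38.7% fell. A split of this kind is thus not particular to them. Cdkn2a had too few counts to be tested. Cdkn1c, which codes for p57, read 20.4, 16, 19.999 and 15.5 CPM and 18.8, 17.2, 16.3 and 18.1 CPM with vehicle, and 7.39, 4.95, 6.34 and 9.46 CPM and 6.0, 6.11, 8.8 and 6.8 CPM with IL-23. Its agents did not overlap, at a log2 fold change of -1.34 ± 0.13 (edgeR adjusted p = 5.79e-08). Cdkn1b, which codes for p27, an inhibitor of cyclin E-CDK2, fell from a range of 93.7 to 118 CPM to one of 61.6 to 88.8 CPM (log2 -0.55 ± 0.07), also without overlap. Cdkn2c fell by 0.30 on the log2 scale over both routes, with overlap between agents, but did not pass in the intraperitoneal groups (-0.20 ± 0.11, edgeR adjusted p = 0.121), where it passed without library 61 (-0.28), with upper-quartile factors (-0.30) or with plain library sizes (-0.41). Cdkn1a, which codes for p21, rose by 0.34 ± 0.11 over both routes with overlap (126 to 184 against 144 to 254 CPM), and this call was lost with plain library sizes. In the intraperitoneal groups Cdkn1a did not pass (0.22 ± 0.15, edgeR adjusted p = 0.205), except without library 28 (0.35), and its oral call (0.46 ± 0.15) was lost without library 24 (0.36) or with plain library sizes (0.26). Cdkn2b rose by 0.72 ± 0.13, Cdkn2d by 0.48 ± 0.06 and Cdkn3, a phosphatase of CDKs, by 1.04 ± 0.12. The intraperitoneal call of Cdkn2d was lost with plain library sizes.

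**Figure D2:**
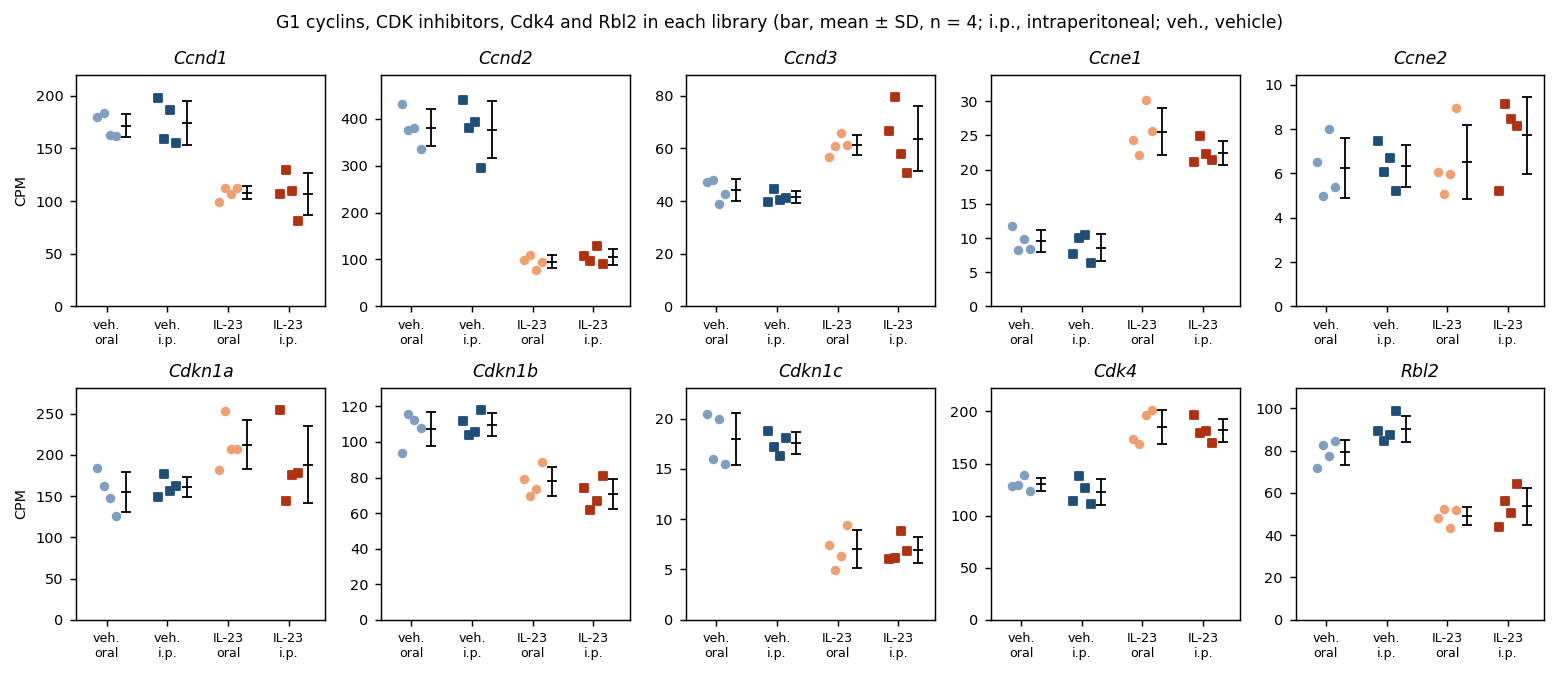
CPM of 10 genes of the G1/S step in each of the 16 libraries, with the mean and SD of each group of 4 beside the points; the vertical axes start at 0 and differ between panels. Ccnd1, Ccnd2, Cdkn1b, Cdkn1c and Rbl2 are lower with IL-23 in both routes, Ccnd3, Ccne1 and Cdk4 are higher, and the points of Ccne2 and Cdkn1a overlap.

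All 9 genes of the G2/M transition rose in each route, with a median log2 fold change of 1.05 over both routes. Cdk1 (gene ID 12534, chr10:69335146-69352912), the kinase that drives entry into mitosis, read 52.6, 67.6, 80.5 and 55.1 CPM and 51.1, 63.5, 75.2 and 65.7 CPM in the oral and intraperitoneal vehicle libraries. Cdk1 read 141, 125, 155 and 151 CPM and 129.6, 168, 133 and 137 CPM with IL-23. All IL-23 libraries were above all vehicle libraries, a 2.23-fold rise (log2 1.15 ± 0.10, edgeR adjusted p = 1.5e-08). Among its cyclin partners, Ccnb1 read 12, 20.1, 18.1 and 13.3 CPM and 16, 17.4, 24.2 and 17.3 CPM with vehicle, and 32.2, 28, 39.2 and 38.3 CPM and 27.4, 47.3, 28.9 and 41 CPM with IL-23. It rose 2.05-fold without overlap, and Ccnb2 and Ccna2 rose 2.17- and 2.07-fold.

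Plk1, the mitotic kinase of centrosomes and kinetochores, had the largest change of this role over both routes. It read 17.4, 24.6, 24.9 and 20.5 CPM and 17.4, 24.5, 24 and 27.9 CPM with vehicle, and 63.7, 52.5, 68.8 and 65 CPM and 51.4, 60.6, 49.1 and 50.2 CPM with IL-23. Vehicle and IL-23 libraries were far apart, at a log2 fold change of 1.52 ± 0.14 oral and 1.18 ± 0.14 intraperitoneal. Aurka, the spindle pole kinase, rose 2.27-fold and Aurkb, the kinase of the passenger complex, 1.8-fold. Cdc25c, the phosphatase that activates CDK1, rose 1.65-fold.

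Foxm1, the transcription factor of late cell cycle genes, had the smallest change of the 9 over both routes. Its libraries read 29.8, 34, 38.7 and 31.8 CPM and 34.1, 33, 42.8 and 35.4 CPM with vehicle, and 51.6, 41.2, 51.6 and 51.2 CPM and 41.3, 59.2, 52.2 and 50.1 CPM with IL-23. The oral groups were apart, whereas IL-23 library 25 fell below vehicle library 59 in the intraperitoneal groups. The log2 fold change of 0.51 ± 0.08 over both routes passed the test (edgeR adjusted p = 3.38e-05). The intraperitoneal call of Foxm1 was lost with plain library sizes.

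Of the 10 kinetochore, checkpoint and passenger genes 9 rose in each route, with a median log2 fold change of 0.83 over both. Birc5 (gene ID 11799, chr11:117849237-117855743), which codes for survivin, a member of the passenger complex, had the largest change of the 50 genes over both routes and in the oral groups. In the intraperitoneal groups Ccne1 (1.39 ± 0.16) and Rrm2 (1.33 ± 0.12) were above Birc5 (1.25 ± 0.12) on the log2 scale. Birc5 libraries read 28.4, 34.8, 41.3 and 32.8 CPM and 30.5, 35.5, 38.9 and 36.3 CPM with vehicle, and 112, 85.1, 118 and 99 CPM and 82.7, 86.1, 85.8 and 79.8 CPM with IL-23. No IL-23 library came near a vehicle library, with a log2 fold change of 1.42 ± 0.08 (edgeR adjusted p = 2.26e-10). Cenpa, the histone H3 variant that marks centromeres, rose 2.23-fold, and Cenpe, a kinetochore motor, 2.13-fold. The checkpoint genes Bub1, Bub1b, Mad2l1 and Ttk rose 1.99-, 1.73-, 1.64- and 1.58-fold. Nuf2 and Ndc80, which bind microtubules in 1 complex, rose 1.8- and 1.77-fold.

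Cenpf, a large protein of the outer kinetochore, was the mitotic gene that did not pass. It read 44.9, 80.3, 80.5 and 55.3 CPM and 58.3, 58.2, 68.4 and 71.3 CPM with vehicle, and 82.9, 72.2, 76.4 and 79.97 CPM and 55, 98.3, 78 and 76.9 CPM with IL-23. The libraries of both agents overlapped in each route. Its log2 fold change over both routes was 0.26 ± 0.12 (edgeR adjusted p = 0.0623). It passed with RLE factors, with DESeq2, with no count filter, or without library 27 (0.32), 33 (0.33) or 25 (0.33).

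All 7 spindle genes rose over both routes, with a median log2 fold change of 0.64. Tpx2, which activates Aurora A on the spindle, read 29.3, 40.7, 53 and 36.5 CPM and 31.6, 39.6, 42.7 and 42.8 CPM with vehicle, and 93.8, 77.2, 84.8 and 88.7 CPM and 73.1, 103, 80.8 and 79.1 CPM with IL-23. The agents were apart in both routes, at a log2 fold change of 1.11 ± 0.11 (edgeR adjusted p = 8.96e-08). The motors Kif11, Kif2c and Kif20a rose 1.86-, 2.05- and 1.45-fold, and Prc1, the crosslinker of the spindle midzone, 1.56-fold. Nusap1, a spindle microtubule protein, had the smallest change over both routes and overlapped: its lowest, median and highest libraries were 39.6, 50.5 and 58.9 CPM with vehicle and 56.4, 70.9 and 92.7 CPM with IL-23 (log2 0.48 ± 0.10, edgeR adjusted p = 0.000271). Without vehicle library 4 the oral changes of Nusap1 and Kif20a did not pass, at 0.29 and 0.32. Both oral calls were also lost with plain library sizes, and that of Nusap1 with upper-quartile factors. The intraperitoneal call of Nusap1 was lost with plain library sizes.

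Hmmr, a spindle assembly factor, varied most within its groups. It read 7.63, 17.5, 15.5 and 11.7 CPM and 11.4, 11.6, 17.5 and 13.3 CPM with vehicle, and 17.6, 17.8, 15.9 and 16.6 CPM and 14.4, 33.9, 16.9 and 20.4 CPM with IL-23. IL-23 library 28 was the highest of all 16 and vehicle library 4 the lowest, and the other libraries overlapped. The log2 fold change was 0.38 ± 0.26 oral (edgeR adjusted p = 0.21) and 0.68 ± 0.26 intraperitoneal (edgeR adjusted p = 0.0296). The intraperitoneal call was lost without library 28 (0.37), 49 (0.60), 50 (0.62) or 67 (0.67), and with upper-quartile factors or plain library sizes. Its call over both routes was lost with plain library sizes.

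Both genes of mitotic exit rose in each route. Cdc20 (gene ID 107995, chr4:118432901-118437343), an activator of the anaphase-promoting complex, read 38.5, 52.5, 64.1 and 45.1 CPM and 39.2, 59.4, 61.1 and 50.8 CPM with vehicle, and 129, 99.2, 128 and 114 CPM and 102, 126, 97 and 107 CPM with IL-23. Its agents did not overlap, at a log2 fold change of 1.13 ± 0.11 (edgeR adjusted p = 7.95e-08). Ube2c, the ubiquitin-conjugating enzyme of that complex, went from a lowest, median and highest of 23.3, 33.9 and 40.02 CPM to 56.6, 64.4 and 77.4 CPM, also without overlap (log2 1.06 ± 0.11).

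The chromosome structure genes are the common marks of dividing cells. Mki67 (gene ID 17345, chr7:135689784-135716450), which codes for the proliferation antigen Ki-67, read 161, 238, 263 and 172 CPM and 187, 203, 238 and 216 CPM with vehicle, and 414, 293, 366 and 359 CPM and 283, 409.9, 359 and 337 CPM with IL-23. Each IL-23 library was above each vehicle library, a 1.68-fold rise (log2 0.75 ± 0.11, edgeR adjusted p = 8.24e-06). Top2a, the topoisomerase that untangles chromosomes, read 149, 179, 202 and 145 CPM and 140.00, 166, 199 and 179 CPM with vehicle, and 312, 273, 323 and 337 CPM and 303, 469, 369 and 292 CPM with IL-23. It rose 1.97-fold without overlap (log2 0.98 ± 0.10, edgeR adjusted p = 2.76e-07), and library 28 was its highest.

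Replication and mitotic genes both rose. All 16 replication genes rose over both routes, with a median log2 fold change of 0.76, and 29 of 30 mitotic genes rose, with a median of 0.94. Among all genes 34.9% rose over both routes. By route the medians were 0.85 and 0.89 oral, and 0.69 and 0.94 intraperitoneal. The mitotic median was thus above the replication median by 0.04 oral, 0.25 intraperitoneal and 0.18 over both, and no test was made of this gap between lists. The oral gap moved to -0.03 without vehicle library 4, to 0.10 without vehicle library 27, to 0.06 without 33 or 24, to 0.07 without 26 and to 0.00087 without 68. The intraperitoneal gap was 0.15 without library 28.

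Within a library, the mean log2 CPM of the 30 mitotic genes minus that of the 16 replication genes gives this contrast per library. Its absolute size depends on the levels and lengths of the genes in each list, so only the change between groups is read. It was -0.02 ± 0.23 in oral vehicle, -0.04 ± 0.11 in intraperitoneal vehicle, 0.07 ± 0.09 in oral IL-23 and 0.08 ± 0.13 in intraperitoneal IL-23 libraries (SD, n = 4 each), and the groups overlapped. The lowest value was -0.35 in vehicle library 4 and the highest 0.24 in IL-23 library 28. Vehicle library 4 was at 5.14 in replication genes and, the lowest of all 16, at 4.80 in mitotic genes. IL-23 library 28 was the highest of all 16 in both lists, at 6.09 and 6.33.

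**Figure D3:**
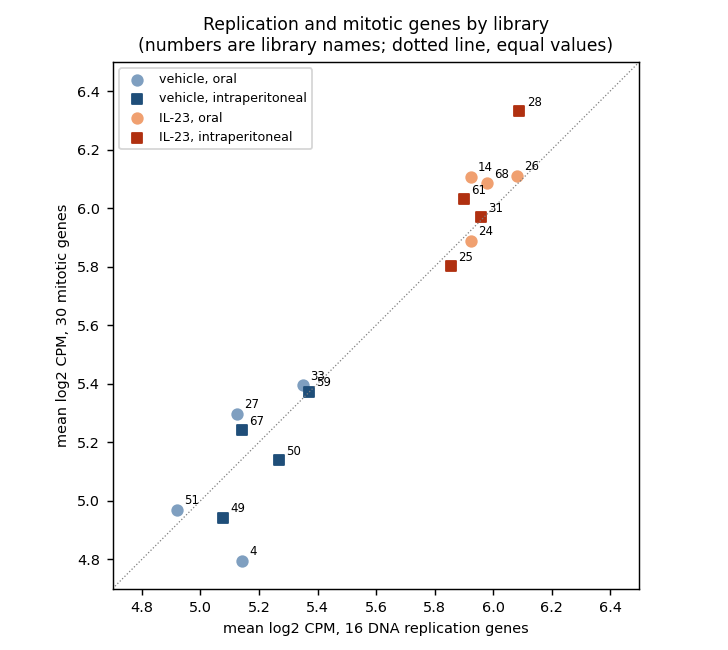
Mean log2 CPM of the 30 mitotic genes against that of the 16 replication genes, 1 point a library, with equal values on the dotted line. Vehicle libraries lie at 4.92 to 5.37 on the horizontal axis and IL-23 libraries at 5.86 to 6.09, while both agents straddle the line, with vehicle library 4 farthest below it and IL-23 library 28 farthest above.

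The route of dosing left no called difference in these genes. When the response to IL-23 was compared across routes, 0 of the 50 and 0 of all 14671 genes passed (0%), and 796 of all genes had an unadjusted p under 0.05. For the route effect, 0 genes passed in vehicle and 0 in IL-23 libraries (0% each), with 1087 and 1874 at an unadjusted p under 0.05. DESeq2 called 1, 1 and 57 of all genes in these 3 contrasts and limma-voom 0 in each, and neither called any of the 50. The largest differences, intraperitoneal minus oral, were -0.54 ± 0.29 for Cdc6, -0.49 ± 0.28 for Kif2c, -0.34 ± 0.16 for Birc5, -0.34 ± 0.20 for Plk1 and -0.34 ± 0.17 for E2f1 (log2, SE; edgeR adjusted p = 0.875 for each). With errors of this size, a modest difference between routes was not detectable.

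Lists of other cell cycle genes were read against the 34.9% of all genes that rose and the 38.7% that fell over both routes. Of 16 origin recognition and firing genes, 12 rose and 1 fell over both routes (median 0.35). Mcm10, a helicase-activating factor, rose by 1.31 ± 0.11 and Dbf4, the activator of the CDC7 kinase, by 1.30 ± 0.10, while Orc3 fell by 0.39 on the log2 scale. Of 32 genes of polymerases, the clamp loader and fork repair, 30 rose and 0 fell (median 0.54), led by Exo1, an exonuclease of repair (0.997 ± 0.13), and Timeless, a fork protection factor (0.95 ± 0.11).

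Among 18 genes of the RB, E2F and MuvB families, 11 rose and 3 fell (median 0.31). The atypical repressors E2f7 and E2f8 rose by 1.32 ± 0.20 and 1.13 ± 0.10 on the log2 scale. Rbl2, which codes for p130, the retinoblastoma relative of resting cells and of the DREAM complex, fell from a range of 71.7 to 98.8 CPM over the 8 vehicle libraries to one of 43.5 to 64.2 CPM over the 8 IL-23 libraries. This drop was free of overlap (log2 -0.72 ± 0.07, edgeR adjusted p = 1.09e-07). Tfdp2, a dimer partner of E2F factors, fell by 0.79.

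Most genes in the mitotic lists outside the 50 rose too, with lower medians than the 0.94 of the 30 mitotic genes and no test of that difference. Of 33 other spindle and cytokinesis genes 27 rose and 0 fell (median 0.72), with Depdc1b at 1.39 ± 0.14 and Tacc3, a spindle protein, at 1.29 ± 0.09. Of 32 other kinetochore and passenger genes 29 rose and 1 fell (median 0.64). Cenpw, a centromere protein, and Cdca8, which codes for the passenger protein borealin, rose by 1.23 ± 0.13 and 1.14 ± 0.08, while Hjurp, the chaperone that deposits CENP-A, fell by 0.50 with overlap. Of 18 condensin, cohesin and separase genes 14 rose and 2 fell (median 0.46). Cdca5, which codes for sororin, rose by 1.11 ± 0.11 and Ncapg, a condensin subunit, by 0.89 ± 0.13, while the cohesin genes Stag2 and Stag1 fell by 0.28 and 0.22.

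Checkpoint and degradation genes went both ways. Of 12 G2 checkpoint and CDC25 genes 7 rose and 2 fell (median 0.35), with Bora, an activator of PLK1, at 1.16 ± 0.11, Chek1, the checkpoint kinase of stalled forks, at 0.76 ± 0.09, and Wee1, the kinase that holds CDK1 back, at -0.39 ± 0.10. Atm, the kinase of double-strand breaks, was at -0.37 ± 0.09. In the anaphase-promoting complex list 3 of 13 tested genes rose and 1 fell (median 0.06). The risers named by rule were Fbxo5, which codes for the inhibitor EMI1 (0.55 ± 0.07), and Fzr1, which codes for the G1 activator CDH1 (0.53 ± 0.05), and the gene that fell was Cdc23 (-0.21 ± 0.08), a core subunit, whose call was lost without library 33, 51 or 68 (-0.18 each).

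Replication-dependent histone genes gave little to read: 7 of 25 passed the count filter, and 2 rose and 1 fell. Hist1h2bj had 0 to 7 counts in vehicle and 5 to 21 counts in IL-23 libraries. Hist1h2bc rose by 0.45 ± 0.09 and Hist1h4h was at -1.07 ± 0.31 on the log2 scale. These genes have near-identical copies, and how reads that map to several places were counted is not given in the sources used here, so their single values are uncertain.

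**Figure D4:**
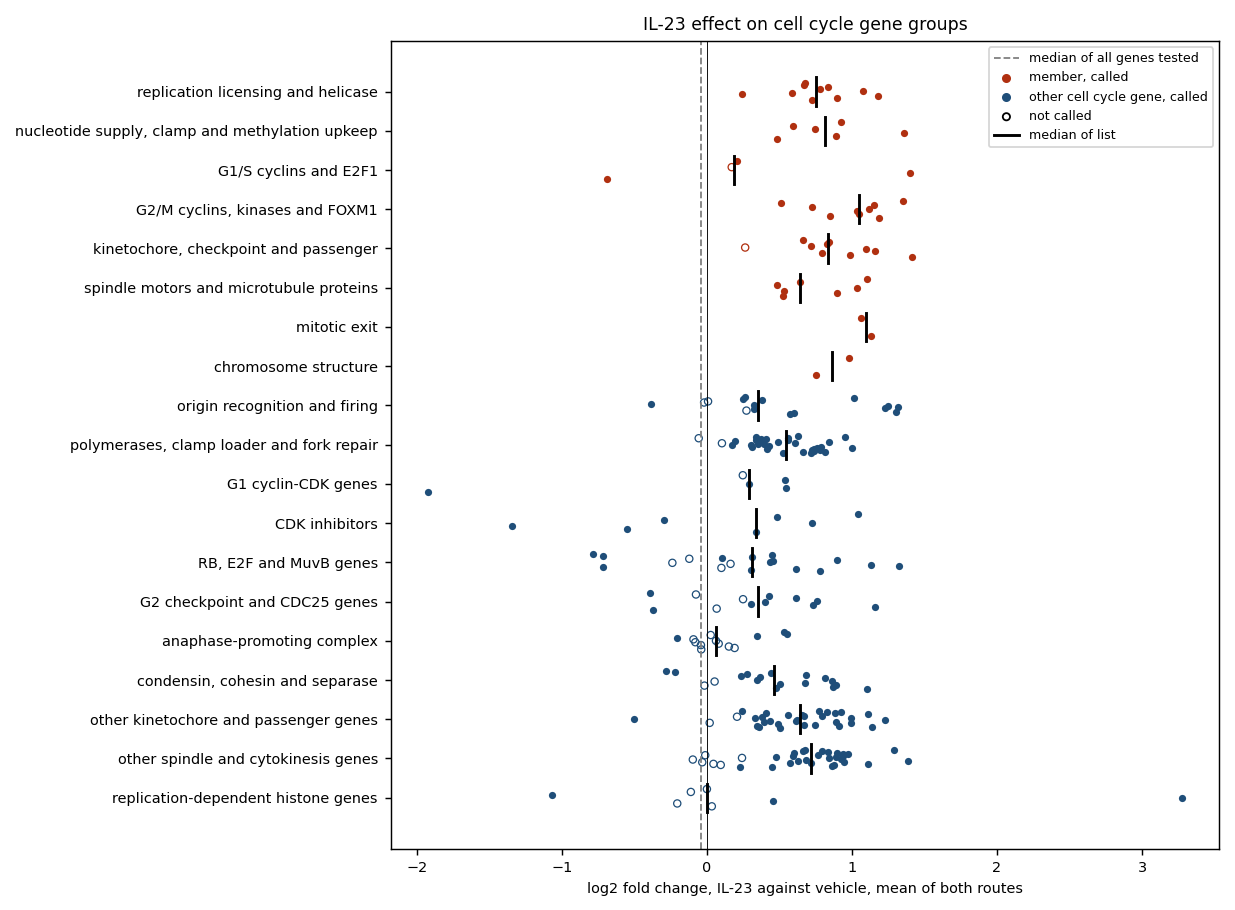
Log2 fold change, IL-23 against vehicle over both routes, of each gene (points) with the median of its list (black bars), for the 8 roles of the 50 genes (red) and 11 further cell cycle lists (blue); open circles did not pass the test and the dashed line is the median of all tested genes. Medians lie between 0.64 and 1.097 for 7 of the 8 roles and at 0.19 for the G1/S role, and Ccnd2 is the lowest point of all.

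Windows of replication and mitotic genes held different words. A CHR-type word stood in 19 of 25 windows of mitotic genes (76.0%), in 2 of 15 windows of replication genes (13.3%) and in 19.2% of all 32851 windows of the table. An E2F-type word stood in 7 of 15 replication windows (46.7%), in 1 of 25 mitotic windows (4.0%) and in 2.26% of all windows. The CCAAT box (CCAAT, the word bound by NF-Y, both strands) was frequent in both, at 73.3% and 76.0%, against 37.4% of all. CHR-type and CCAAT words stood together in 68.0% of mitotic and 7.52% of all windows. Some genes have more than 1 window, and the single mitotic E2F-type match is the one in Cdk1 that begins 131 bases before the start.

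Mitotic CHR-type matches lay close to the start, at a median of -18.5 bases (26 matches, from -188 to 41). Replication E2F-type matches had a median of -108 bases (12 matches, from -185 to 39), with overlapping matches on both strands counted separately. They lay on both sides of the start: Mcm7, Mcm3 and Cdt1 had matches at positions 17, 20 and 33 after it. Lists outside the 50 varied. CHR-type words stood in 71.0% of windows of other spindle and cytokinesis genes, in 46.7% of those of other kinetochore and passenger genes, in 29.4% of those of origin recognition and firing, and in 12.9% of those of polymerases, the clamp loader and fork repair. E2F-type words stood in 23.5% and 25.8% of the windows of the last 2 lists, in that order. For the anaphase-promoting complex, 3 of 15 windows held a CHR-type and 0 an E2F-type word. Among mitotic genes with a window, Birc5, Ccnb1, Cenpe, Mad2l1, Nuf2 and Nusap1 had no CHR-type word, with log2 fold changes over both routes from 0.48 (Nusap1) to 1.42 (Birc5). Of the 2 G1/S genes with a window, neither held any of the 3 words. These matches describe letters in a window, and binding was not measured.

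**Figure D5:**
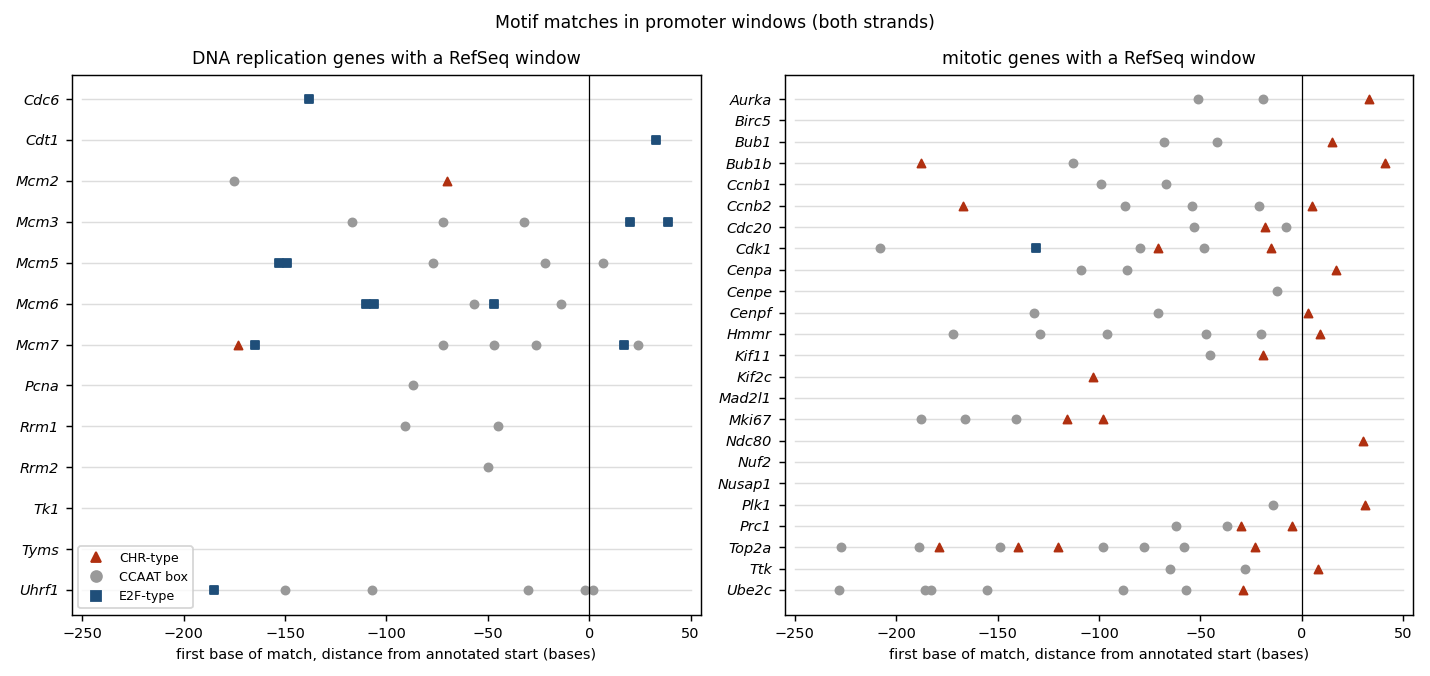
First base of each CHR-type (triangles), CCAAT (circles) and E2F-type (squares) match, as the distance in bases from the annotated start, in windows of replication genes (left) and mitotic genes (right); genes with an empty line had no match. CHR-type matches fill the mitotic panel near the start and occur in Mcm2 and Mcm7 alone on the left, where E2F-type matches occur in 7 genes.

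Markers of other cells moved beside these genes, and their part in the result was not tested. Of all genes 34.9% rose and 38.7% fell over both routes, and several of the counts below are near those shares. Over both routes 4 of 7 tested T cell markers rose (summed level 10.2 to 19.2 CPM in vehicle and 10.7 to 67.7 CPM in IL-23 libraries), and 4 of 7 macrophage and monocyte markers rose (196 to 407 against 264.1 to 1554 CPM). All 5 tested neutrophil markers rose (12.3 to 54.2 against 8603 to 13039.8 CPM, most of it S100a8, which keratinocytes also make). By route, 2 of the 7 T cell markers rose in the oral groups (29.2% of all genes) and 5 in the intraperitoneal groups (30.8%), which hold library 28. The B cell list had no tested gene (at most 2.59 CPM in sum), with Pax5 at 0 in every library. Of 8 basal keratinocyte markers 3 rose and 5 fell. Krt14 rose by 0.89 ± 0.11 and Krt15 fell by 2.10 on the log2 scale. Of 7 suprabasal markers 4 rose and 0 fell, with sums of 7226 to 11777 CPM in vehicle and 17711 to 41716 CPM in IL-23 libraries.

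In lists of other tissue parts the called genes were lower over both routes, where 38.7% of all genes were lower. Of 4 tested hair matrix markers 3 fell (38.7 to 48.4 against 12.9 to 32.4 CPM in sum), of 7 fibroblast markers 4 (1771 to 3647 against 1007 to 5208 CPM), and of 6 endothelial markers 4 (89.1 to 195 against 67.4 to 145 CPM). By route, 4 fibroblast and 4 endothelial markers fell in the oral groups (34% of all genes), with medians of -0.86 and -0.69. In the intraperitoneal groups 1 and 0 fell (30.9% of all genes), with medians of -0.15 and -0.23. The intraperitoneal IL-23 group holds the library that stood apart in immune and stromal markers. Summed fibroblast markers of that group ran from 1150 to 5208 CPM, with a median of 1744 CPM. The difference between routes passed for no gene. All 8 skeletal muscle markers (2714 to 5968 against 1251 to 2395 CPM) and all 6 adipocyte markers (312 to 529 against 119 to 199 CPM) fell, and 5 of 6 cartilage markers did (465 to 627 against 176 to 352 CPM). The 1 tested erythroid marker and the 1 tested liver marker fell, and no neuron marker was tested. CPM are relative levels, so falls of these parts and rises of others, such as the suprabasal and neutrophil lists, can both shift the values of the rest. How far that enters the changes of the 50 genes was not tested.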

How the data were processed

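Read counts per gene for 16 libraries were used as the authors deposited them, as whole numbers with no normalization. The labels' protocols name a TruSeq Stranded Total RNA kit and an Illumina HiSeq instrument. The submitters' processing notes name FastQC, STAR, featureCounts (Subread 1.5.0) and the GRCm38 build. Which annotation release and strand option were used, and how reads with several places were treated, is not given in the sources used here.

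All genes were fitted together with edgeR 4.0.16 (R 4.3.3): filterByExpr with a minimum count of 10 (14671 of 26357 genes; 5558 had no count), TMM factors, 4 group means on 12 residual degrees of freedom and 2-sided quasi-likelihood tests. P-values were adjusted by Benjamini and Hochberg's method over the 14671 genes, with a threshold of 0.05. Standard errors are the log2 fold change divided by the square root of F. Log2 CPM used a prior count of 2. Positions and promoter windows are RefSeq's, GRCm38.p6. On simulated counts with known changes, 43 of 50 genes changed 2-fold and 38 of 50 changed 0.5-fold were called for the mean of routes. Of 14295 unchanged genes 9 were called. That simulation changed few of about 14495 genes, equally up and down, whereas 73.6% of genes passed in the data. Its recovery therefore does not describe the scaling or the threshold in these data. DESeq2 1.42.0, limma-voom (limma 3.58.1), other scalings and filters, and 16 fits without 1 library were alternatives.

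The 50 genes, the 11 pathway lists and the 15 marker lists were chosen with earlier results of these data known. Of the 50 genes, those with the largest and smallest change in each role are given with library values. So are those that fell or did not pass, those of a fixed list and a few more. Most are given with every library, and Mcm2, Mcm5, Nusap1 and Ube2c with the lowest, median and highest library of each agent. Pathway lists name the 2 largest rises and falls, and all CDK inhibitors. The promoter rule was narrowed, after the windows were seen, to stretches outside annotated genes.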

Additional observations from a re-analysis of the deposited data

Results flagged for a closer look

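In 7 of 200 groups of 4 libraries (50 genes in 4 groups) 1 library lay far from the other 3, and chance flags about 1 in 20 groups. IL-23 oral library 24 was the lowest of its group for 3 mitotic genes: Foxm1 at 41.2 CPM against 51.2 to 51.6, Kif11 at 89.2 CPM against 104 to 107, and Kif2c at 31.3 CPM against 40.1 to 41.0. Its mean over the 30 mitotic genes was also apart, at 5.89 log2 CPM against 6.08 to 6.11, the single case among 48 groups of list means. Vehicle intraperitoneal library 49 was the lowest of its group for 2 replication genes, Cdt1 at 23.1 CPM against 28.4 to 29.3 and Tk1 at 24.5 CPM against 30.9 to 31.3. Gins1 was at 15.1 CPM in IL-23 intraperitoneal library 25 against 18.2 to 18.5 in the other 3. Mcm4 was at 156 CPM in IL-23 intraperitoneal library 28 against 133 to 135, the single case of a high library. Each of these 7 genes rose in both routes.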

How the results depend on the processing

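Counts of the 50 genes called moved little: 44 to 46 (oral), 44 to 47 (intraperitoneal) and 47 to 49 (both routes) when 1 library was left out, and 43 to 46, 42 to 47 and 45 to 49 under other scalings, filters and tools. With plain library sizes 43, 42 and 45 were called, the median of all genes moved to -0.26, -0.23 and -0.25, and the median of the 50 was 0.66, 0.59 and 0.63. Among all genes that scaling changed the balance of calls: 2942 of 9495 were higher (oral), 2871 of 9119 (intraperitoneal) and 3515 of 11031 (both), against 4288 of 9280, 4519 of 9056 and 5117 of 10792 with TMM.

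Some small changes took the other sign. With upper-quartile factors these were Ccne2 oral (-0.013), E2f1 intraperitoneal (-0.064) and Cdk6 intraperitoneal (-0.052). With plain library sizes they were Ccne2 oral (-0.13) and over both routes (-0.029), and, intraperitoneal, E2f1 (-0.17), Cdk6 (-0.17), Cdk2 (-0.0097) and Cdkn1a (-0.0083). Without 1 library, Ccne2 oral ranged from -0.14 to 0.21 and E2f1 intraperitoneal from -0.031 to 0.10. The cause was not tested. The gap between mitotic and replication medians ranged from -0.03 to 0.10 oral, 0.15 to 0.27 intraperitoneal and 0.14 to 0.20 over both when 1 library was left out. No paired analysis was possible because the groups share no replicate number in the labels. Counts of 32 or more in each library limit the precision of the lowest genes, and 4 libraries a group limit the tests of route.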
